A study of Chionodraco hamatus and Gymnodraco acuticeps and Trematomus bernacchii with 9 samples.

Results

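Solute carriers are membrane proteins that move ions, nutrients, vitamins, metals and metabolites across the plasma membrane, the mitochondrial inner membrane, the Golgi and the lysosome. They are sorted into numbered families by sequence, and each family tends to carry 1 kind of cargo. In the kidney tubule they take filtered peptides and salts back up and secrete organic anions and cations, while in developing blood cells they bring in iron, amino acids and nucleosides. Here the rows of these carriers were described in the head kidney of 3 Antarctic notothenioid fishes. Members were found by their UniProt mnemonic, an S, 2 digits for the carrier family and a member code of 2 letters or digits, leaving out S100 calcium-binding proteins of the S10A form, S238B and S40A1. Of the 12653 rows of the table, 131 matched. The codes of 7 of these stand for other proteins, namely S100B, S11IP, S14L1, S14L2, S22BB, S23IP and S30BP, which were set aside, and 124 carrier rows with 108 distinct mnemonics were described. A row is named by its UniProt entry, such as S226B_XENLA, in which XENLA stands for the organism whose protein served as the label.

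Chionodraco hamatus is one of the icefishes, whose blood is without hemoglobin, whereas Gymnodraco acuticeps as well as Trematomus bernacchii have red blood. The title of the series speaks of suppressed erythropoiesis in the icefish and of TGF-β signaling. The head kidney is the blood-forming organ of these fish, and each species had 3 libraries of its bulk RNA, with total counts of 2501922 to 12055675 per library, and the labels give neither age nor sex nor treatment. Whether each library is a fish of its own is not stated, so the p-values speak of the spread among these 9 libraries alone. Levels are counts in each 1000000 counts of the library (CPM), with the library scaled by the trimmed mean of M-values, and are given per library or as means ± SD over n = 3 libraries. No value is per length, so levels are compared between species within a row and never between rows. In bulk RNA fewer cells of a type and less RNA per cell cannot be told apart. Reads of 1 fish protein may also fall on the entry of 1 organism in 1 species and of another organism in the next, so a 0 is a statement on the row and not on the gene. Where a species was at 0, the fold is a lower bound, taken against a floor of 3 counts per library, and where it held 1 to 3 counts, the fold is a ratio of summed counts with an exact interval. Both cover counting error only.

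The C. hamatus libraries stood apart from each other in adrenal transcripts, which come from the interrenal and chromaffin cells that lie within the head kidney of fish. A list of interrenal marker rows summed to 48.01, 92.7 and 26742 CPM in C. hamatus replicates 1 to 3, against 111 to 189 CPM across G. acuticeps and 31.4 to 49.1 CPM across T. bernacchii. Of the 12 markers listed, 4 had a row. NCPR_BOVIN held most of the counts in C. hamatus replicates 1 and 2, 147 and 197, where STAR_SALFO held 0. It held 382, 236 and 438 counts in G. acuticeps replicates 1 to 3, where STAR_SALFO held 17, 2 and 4. The chromaffin list summed to 179, 8634 and 4168 CPM in C. hamatus, against 75.1 to 91.0 CPM across G. acuticeps and 143 to 576 CPM across T. bernacchii. This list includes the carrier rows SC6A2_HUMAN and VMAT1_RAT, which held most of its counts in C. hamatus replicate 1, 629 and 124. In that library TY3H_ANGAN and PNMT_PIG held 0 counts and DOPO_BOVIN 2. DOPO_BOVIN held 90, 136 and 366 counts in G. acuticeps replicates 1 to 3. Erythroid markers summed to 294 to 429 CPM across C. hamatus, against 8501 to 17933 CPM across G. acuticeps and 66147 to 172794 CPM across T. bernacchii. The 2 globin rows HBB_TREHA and HBA_TREBE, at 0 in every C. hamatus and G. acuticeps library, made up 95.9% to 98.4% of the T. bernacchii sums. The 12 other erythroid rows summed to 294 to 429 CPM across C. hamatus, against 8501 to 17933 CPM across G. acuticeps and 2732 to 3655 CPM across T. bernacchii, so that without those globin rows the order of the red-blooded species turned. Of 26 kidney tubule and glomerulus markers, 16 had a row, and they summed to 70.3 to 454 CPM across C. hamatus, highest in replicate 3, against 41.6 to 85.6 CPM across G. acuticeps and 74.5 to 122 CPM across T. bernacchii. The rows of megalin (LRP2_HUMAN) and cubilin (CUBN_CANFA), which define the proximal tubule, held 1 and 2 counts over all 9 libraries. Skeletal muscle markers summed to 899 to 1402 CPM across C. hamatus, against 22045 to 35642 CPM across G. acuticeps and 692 to 3389.5 CPM across T. bernacchii. The actin row ACTS_ORYLA made up 83.9% to 95.3% of the G. acuticeps sums. The 18 other muscle rows summed to 707 to 1275 CPM across C. hamatus, against 1527 to 5748 CPM across G. acuticeps and 673 to 3225 CPM across T. bernacchii, and the red-blooded species then overlapped. CASQ1_RAT made up most of this sum in C. hamatus replicates 1 and 3, with 3558 and 4398 counts, against at most 12 in any red-blooded library. The rows went different ways. KCRM_CANFA held 0, 0 and 20 counts in C. hamatus, against 468, 2084 and 1274 in T. bernacchii. TPM1_XENLA held 1025, 536 and 638, against 46, 284 and 222.

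The icefish differed from the red-blooded species in many single carriers. The share of carriers that were called was close to that of all rows against the mean of both species and against G. acuticeps, and lay above it against T. bernacchii, with no test made of these shares. The low-count filter kept 71 of the 124 carrier rows. Compared with the mean of the other species, 21 of them were higher in C. hamatus (29.6%) and 8 lower (11.3%), where 26.5% and 14.3% of all 8662 tested rows were called in these directions and 40.8% in either, against 40.8% of the carriers. Their median log2 fold change was 0.58 (0.45 with rows at 0 in a species set to their bound), against 0.20 over all tested rows. Against G. acuticeps alone 19 carriers were higher and 9 lower (background 25.1% and 16.8%, 42.0% in either direction, against 39.4% of the carriers). Against T. bernacchii alone 20 were higher and 16 lower (background 17.6% and 14.8%, 32.4% in either direction, against 50.7% of the carriers). Both comparisons use the same C. hamatus libraries. The count above T. bernacchii was 13 without T. bernacchii replicate 1, and over all rows 1173 of 9261 in place of 1527 of 8662. With C. hamatus replicates 2 and 3 left out, the libraries with the most adrenal transcripts, 14 of the 79 carriers then tested were higher and 6 lower than the mean of the others, 8 were higher than in G. acuticeps and 10 higher than in T. bernacchii. Of all 9478 rows tested in that setting, 13.6% were higher and 7.96% lower than the mean of the others, 13.7% were higher than in G. acuticeps and 8.97% higher than in T. bernacchii, so that calls fell over all rows too. Kidney-type carriers numbered 18 rows, mitochondrial ones 15 and metal carriers 15, of which 7, 10 and 7 were tested. The groups of amino acid, anion and lysosomal carriers had no call against the mean of the others, 0 of 8, 0 of 5 and 0 of 4 by edgeR. Each row stood in 1 group only. Called carriers of anions or peptides, such as S26A6_HUMAN, S226B_XENLA, S22A7_PONAB, S15A1_CANFA and S15A2_RAT, were counted as kidney-type. S46A3_CHICK, a lysosomal carrier called lower, was counted with the vitamin carriers.

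**Figure D1:**
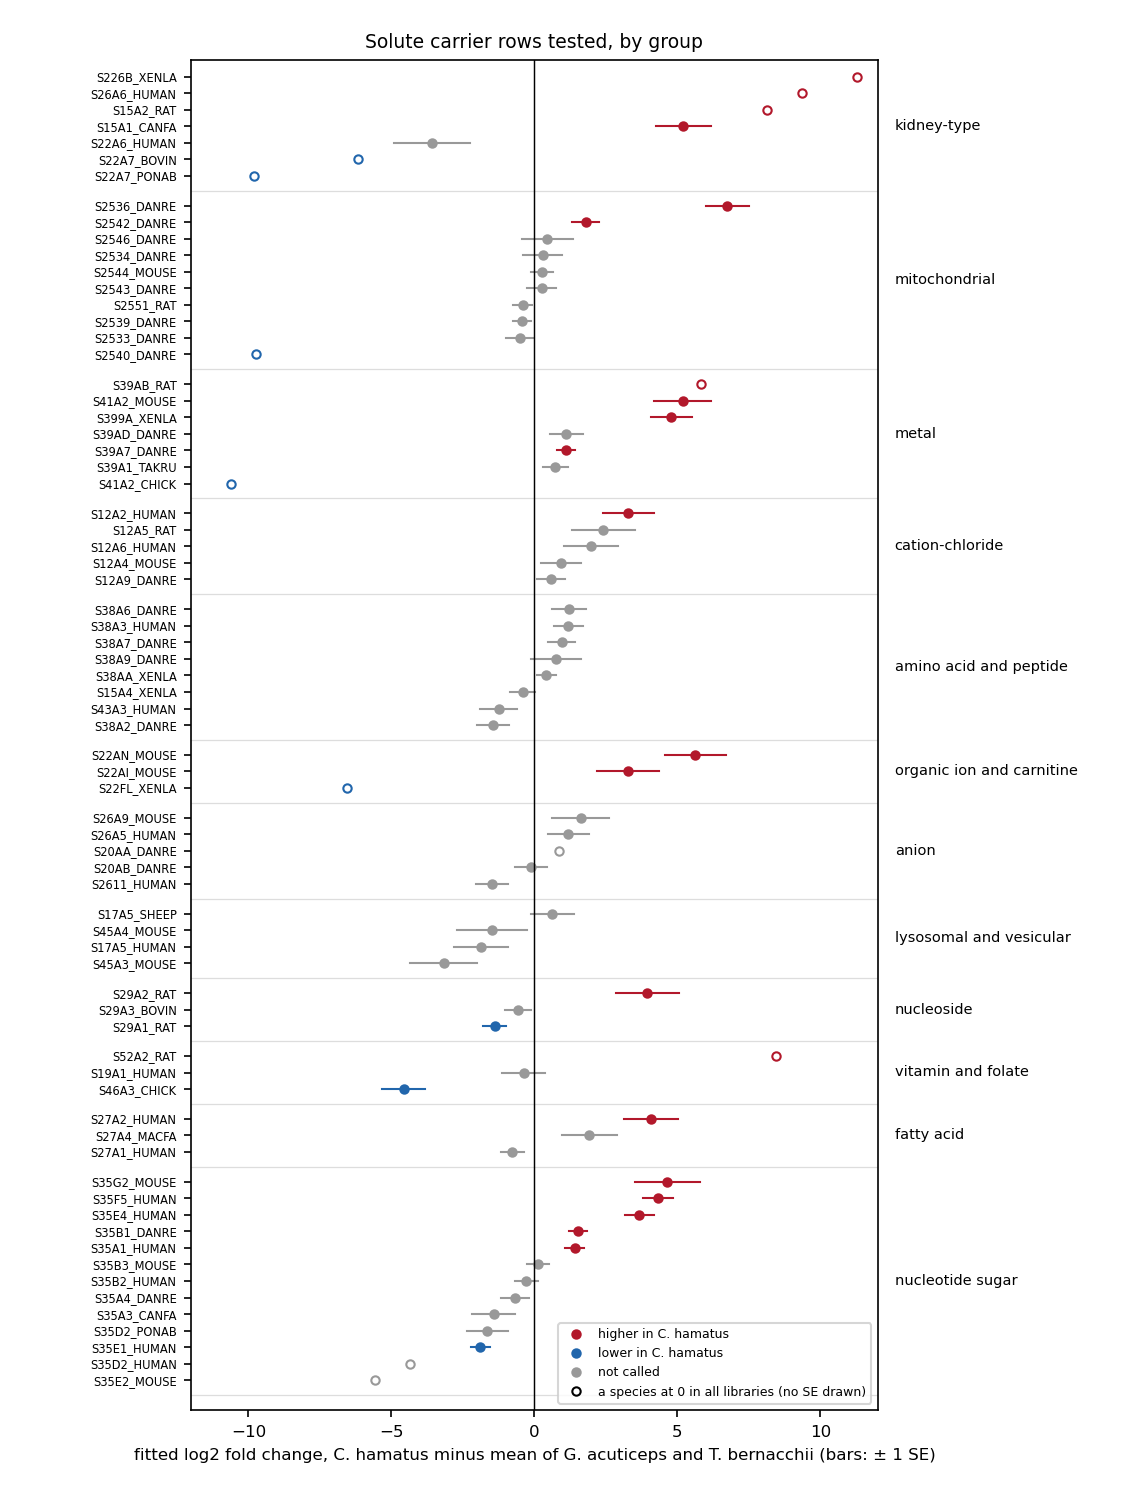
Fitted log2 fold change of C. hamatus minus the mean of G. acuticeps and T. bernacchii (x axis) for the 71 tested carrier rows (y axis), ordered by group, with bars of 1 SE. Red points are the 21 rows called higher in C. hamatus, blue points the 8 called lower, grey points were not called, and open points mark rows at 0 in all libraries of a species, whose fitted value depends on the fit's prior count.

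Among kidney-type carriers, 4 of 7 tested rows were higher and 2 lower in C. hamatus (background 26.5% and 14.3%). These rows passed the filter mostly through the species in which they were high, so their count is a description. S226B_XENLA, a copy of SLC22A6 (OAT1), the exchanger that brings organic anions from blood into proximal tubule cells, had 46.8, 63.3 and 68.3 CPM in C. hamatus and was at 0 in all 6 libraries of the red-blooded species. It was at least 89.5-fold higher in C. hamatus set against G. acuticeps (adjusted p = 0.000390). Set against T. bernacchii it was at least 87.1-fold higher (adjusted p = 0.000545). Against the mean of both species its adjusted p was 0.000148. It was called without any 1 library, at an adjusted p of at most 0.000729. The human entry of the same carrier, S22A6_HUMAN, showed another pattern. It had 0, 0.338 and 0 CPM in the C. hamatus libraries, against 9.03, 6.03 and 4.48 CPM in those of G. acuticeps and 0, 0.673 and 0.194 CPM in those of T. bernacchii, and it had 1 count in C. hamatus. It was 70.1-fold lower by counts (95% counting interval 12.3 to 2797) in C. hamatus than in G. acuticeps, with an adjusted p of 0.00638. With all SLC22A6 rows summed, the level was 59.6 ± 11.3 CPM in C. hamatus, against a mean of 7.43 ± 3.66 in G. acuticeps and of 0.289 ± 0.346 in T. bernacchii. The summed carrier was higher in C. hamatus than the mean of the others, with a log2 change of 5.39 (SE 0.59, adjusted p = 0.000148). It also differed between the red-blooded species, with 4.76 (SE 0.83, adjusted p = 0.00191) for G. acuticeps minus T. bernacchii.

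The rows of its relative SLC22A7 (OAT2), another organic anion carrier, went the other way, with no count on any of the 3 in C. hamatus. Whether reads of either relative fell on the entries of the other was not tested, and no sum over both carriers is given. S22A7_PONAB had 0 in all 3 C. hamatus libraries, against 19.3, 20.4 and 11.2 CPM in those of G. acuticeps and 41.6, 17.8 and 23.3 CPM in those of T. bernacchii. All 6 red-blooded libraries thus lay above all icefish libraries. The row was at least 22.04-fold lower in the icefish set against G. acuticeps (adjusted p = 0.000386). Set against T. bernacchii it was at least 35.9-fold lower (adjusted p = 0.000405). Against the mean of both species its adjusted p was 0.000272. It was called without any 1 library, at an adjusted p of at most 0.00135. S22A7_BOVIN was counted almost wholly in T. bernacchii, at 29.2, 10.8 and 14.1 CPM, and was at least 23.4-fold lower in the icefish than there (adjusted p = 0.00223). It was also called against the mean of both species (adjusted p = 0.0132). G. acuticeps held 3 counts of this row, all in replicate 3. Without that library both C. hamatus and G. acuticeps are at 0, and the fit then gave a log2 change of -4.68, adjusted p = 0.9998, with an SE too wide to call a difference of any size. Summed over the 3 rows, SLC22A7 stood at 0 in C. hamatus, against 17.05 ± 4.84 CPM in G. acuticeps and 45.7 ± 22.4 CPM in T. bernacchii, and the red-blooded species were not called apart, with -1.43 (SE 0.57, adjusted p = 0.0904).

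**Figure D2:**
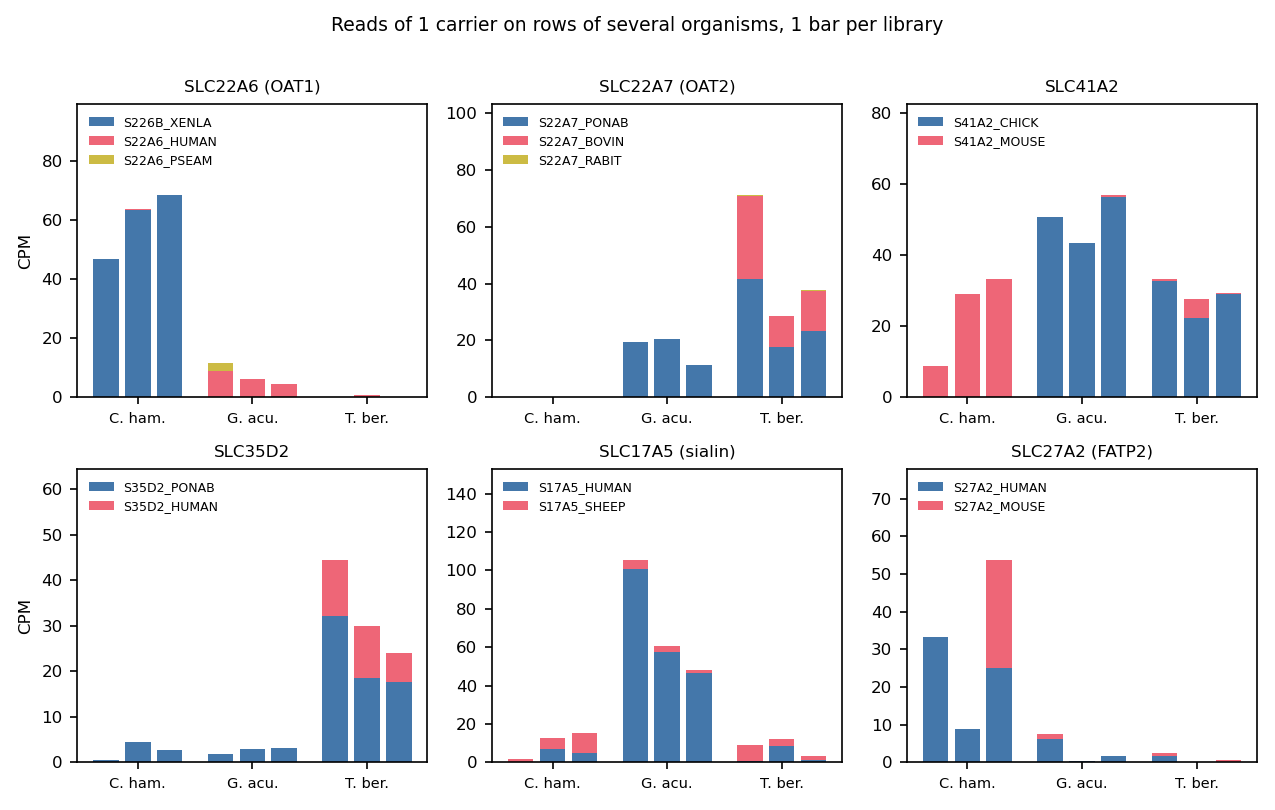
CPM (y axis) of carriers whose reads fell on entries of several organisms, with 1 stacked bar per library in the order of replicates 1 to 3 and species along the x axis, and colours for the rows. SLC22A6 reads of C. hamatus lay on the S226B_XENLA row and those of G. acuticeps mostly on S22A6_HUMAN, SLC22A7 was empty in C. hamatus, and SLC41A2 reads lay on S41A2_MOUSE in C. hamatus and mostly on S41A2_CHICK in the others.

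The rows of an anion exchanger and of both peptide carriers were higher in the icefish. S26A6_HUMAN, the row of SLC26A6, which swaps chloride for oxalate and bicarbonate at the tubule's apical membrane, had 91.8, 26.7 and 125 CPM in the C. hamatus libraries, against 0 in all 3 G. acuticeps libraries and 0, 0.336 and 1.16 CPM in those of T. bernacchii. The lowest C. hamatus library was far above every other library. The row was at least 122-fold higher than in G. acuticeps, and its log2 fold change against T. bernacchii was 7.02 (SE 1.09, adjusted p = 0.00205), where it was 8.90 leaving out T. bernacchii replicate 3. The peptide carriers take up short peptides together with protons. S15A1_CANFA (PEPT1), known from the gut and the early proximal tubule, had 10.7, 12.2 and 21.8 CPM in the C. hamatus libraries, against 0.311, 0 and 1.12 CPM in those of G. acuticeps and 0, 0 and 0.582 CPM in those of T. bernacchii, and its log2 fold change against the mean of both was 5.21 (SE 0.96, adjusted p = 0.00173). It was 6.08 leaving out G. acuticeps replicate 3 and 6.83 leaving out T. bernacchii replicate 3; with C. hamatus replicates 2 and 3 both left out it was 4.77 (adjusted p = 0.0409). S15A2_RAT (PEPT2), the high-affinity form, had 8.12, 33.5 and 25.02 CPM in the C. hamatus libraries, against 0.934, 0 and 0 CPM in those of G. acuticeps and 0 in all 3 T. bernacchii libraries. It was 119.9-fold higher by counts (95% counting interval 40.6 to 585) in C. hamatus set against G. acuticeps (adjusted p = 0.00924). Set against T. bernacchii it was at least 32.5-fold higher (adjusted p = 0.00491). Against the mean of both species its adjusted p was 0.00122. It was called without any 1 library, at an adjusted p of at most 0.00507. The kidney marker sum, mostly from the row UROM_HUMAN, was highest in C. hamatus replicate 3, where S26A6_HUMAN and S15A1_CANFA were also highest. S15A2_RAT was highest in replicate 2. The part of tubule content in these calls was not tested. The other 11 kidney-type rows were not tested and held few counts: the salt carrier S12A1_RAT (NKCC2) held 2 counts, all in C. hamatus, and the rows of S47A1 (MATE1), which extrudes organic cations, held 3 counts in all, all in T. bernacchii.

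**Figure D3:**
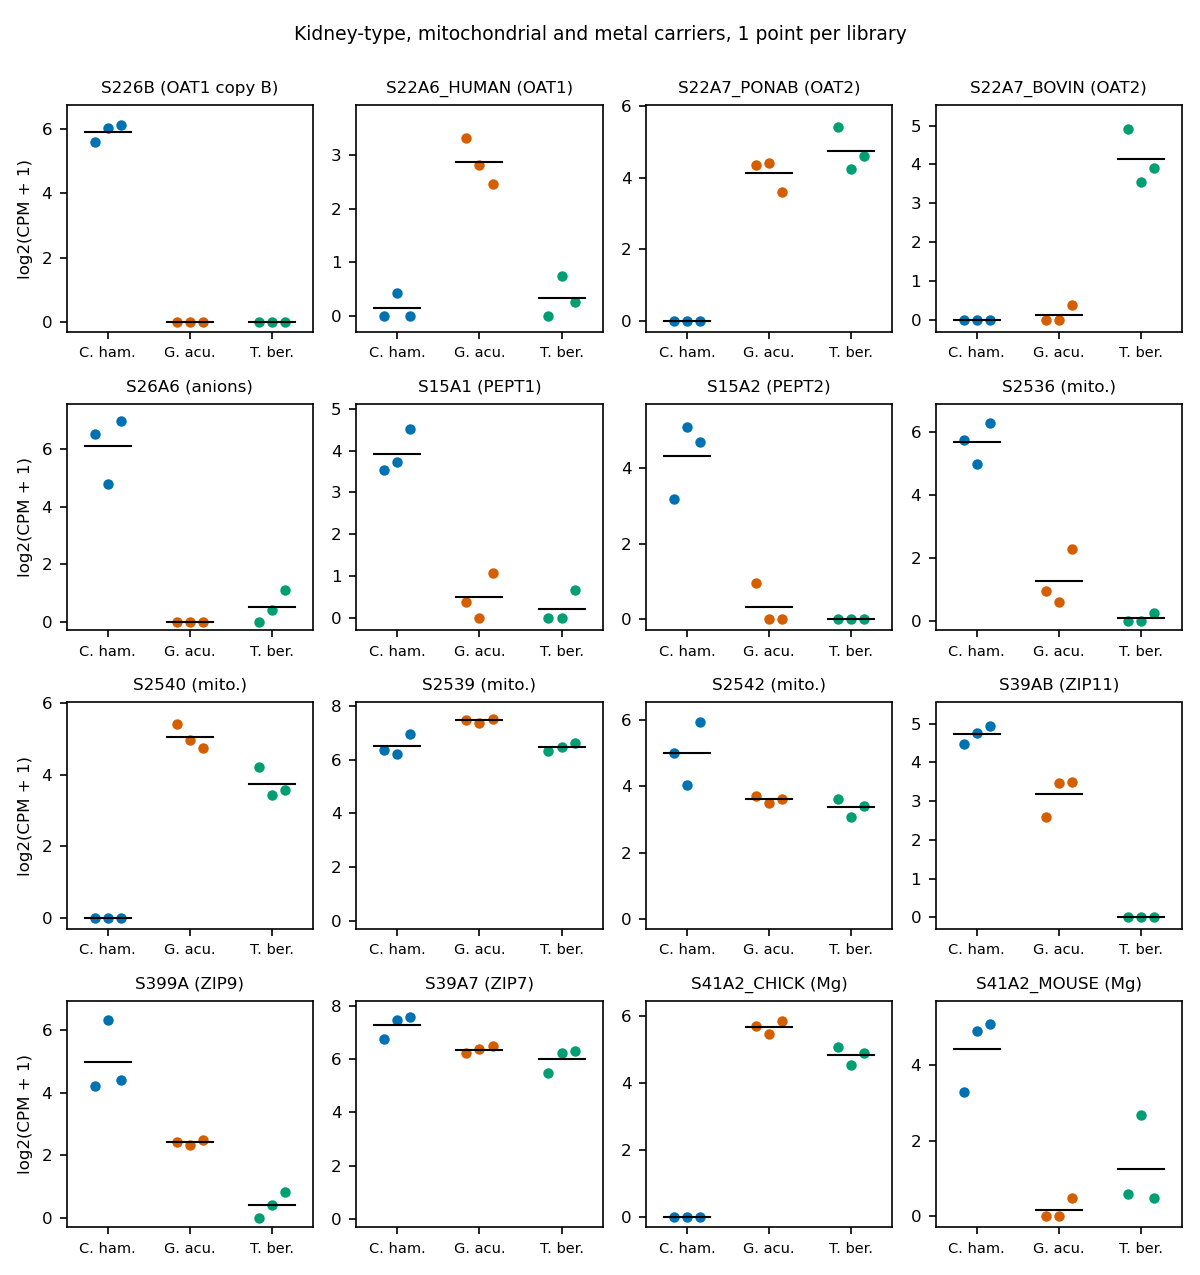
Level as log2(CPM + 1) (y axis) of 16 kidney-type, mitochondrial and metal carrier rows in each species (x axis), 1 point per library with a line at the mean of the 3 points. S226B, S26A6, PEPT1, PEPT2 and S2536 were higher in every C. hamatus library than in any other, S22A7_PONAB, S2540 and S41A2_CHICK were at 0 in C. hamatus, and S2539 was counted in all 9 libraries.

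Carriers of the SLC25 family pass metabolites through the inner mitochondrial membrane, and most tested rows with S25 codes were not called. Mitochondrial carriers under other code forms were not members and stand outside these counts. Chosen after the values were seen, ORNT1_HUMAN was higher in C. hamatus than the mean of both (6.23, adjusted p = 0.000129). SAMC_DANRE, at 0 in G. acuticeps, was also called higher (adjusted p = 0.0398). Called lower were UCP2_CYPCA (-3.30, adjusted p = 0.00657) and MFRN1_DANRE (-8.53, adjusted p = 0.000551). ADT1_RABIT and M2OM_MOUSE, at 0 in C. hamatus, were called lower as well (adjusted p = 0.00312 and 0.00704). CMC1_PONAB was lower (-2.31, adjusted p = 0.000699). CMC1_HUMAN, another entry of the same carrier, was called the opposite way, as higher (2.40, adjusted p = 0.00371). No sum of both entries is given here, so no direction is stated for that carrier. ADT2_RAT was not called (0.63, adjusted p = 0.277). Of the rows with S25 codes, 2 of 10 tested were higher and 1 lower in C. hamatus (background 26.5% and 14.3%). Their median log2 fold change was 0.25 (0.25 with rows at 0 at their bound), against 0.20 over all rows. S2536_DANRE, the pyrimidine nucleotide carrier SLC25A36, had 52.2, 30.5 and 76.6 CPM in the C. hamatus libraries, against 0.934, 0.502 and 3.87 CPM in those of G. acuticeps and 0, 0 and 0.194 CPM in those of T. bernacchii. Every C. hamatus library lay above all others. Its log2 fold change against the mean of both was 6.75 (SE 0.76, adjusted p = 0.000168); it was 7.44 leaving out G. acuticeps replicate 3 and 7.79 leaving out T. bernacchii replicate 3. Its close relative S2533_DANRE (SLC25A33), which carries the same kind of nucleotide, had 13.1 ± 6.37 CPM in C. hamatus, against a mean of 25.7 ± 7.55 in G. acuticeps and of 13.7 ± 2.32 in T. bernacchii, and was not called (adjusted p = 0.413). The summed level of both relatives was 66.2 ± 26.98 CPM in C. hamatus, against a mean of 27.5 ± 7.43 in G. acuticeps and of 13.8 ± 2.43 in T. bernacchii, and all C. hamatus libraries remained above the others. S2540_DANRE (SLC25A40), a carrier of glutathione into mitochondria, had 0 in all 3 C. hamatus libraries, against 41.4, 30.4 and 25.7 CPM in those of G. acuticeps and 17.4, 9.76 and 10.97 CPM in those of T. bernacchii. It was at least 42.3-fold lower in the icefish set against G. acuticeps (adjusted p = 0.000196). Set against T. bernacchii it was at least 16.5-fold lower (adjusted p = 0.000484). Against the mean of both species its adjusted p was 0.000213. It was called without any 1 library, at an adjusted p of at most 0.00121.

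The second glutathione carrier, S2539_DANRE (SLC25A39), was present in every library, at 91.9 ± 26.02 CPM in C. hamatus, against a mean of 175 ± 9.10 in G. acuticeps and of 88.4 ± 9.60 in T. bernacchii. It was not called against the mean of both (log2 fold change -0.43, SE 0.30, adjusted p = 0.282), nor against G. acuticeps alone (-0.93, SE 0.35, adjusted p = 0.0535), where it was called lower without C. hamatus replicate 3 (-1.19, adjusted p = 0.0240) or T. bernacchii replicate 2 (-0.95, adjusted p = 0.0433). Summed, SLC25A39 and SLC25A40 stood at 91.9 ± 26.02 CPM in C. hamatus, against a mean of 207 ± 11.1 in G. acuticeps and of 101 ± 7.04 in T. bernacchii. The summed C. hamatus values thus overlapped those of T. bernacchii and lay below those of G. acuticeps. S2542_DANRE (SLC25A42), the mitochondrial coenzyme A carrier, had 31.3, 15.6 and 59.6 CPM in the C. hamatus libraries, against 12.1, 10.3 and 11.3 CPM in those of G. acuticeps and 11.2, 7.40 and 9.51 CPM in those of T. bernacchii, and a log2 change of 1.79 (SE 0.46, adjusted p = 0.0109). Each C. hamatus library exceeded all others, but the call was lost without C. hamatus replicate 3 (1.19, adjusted p = 0.0756), and with C. hamatus replicates 2 and 3 both left out it was 1.61 (adjusted p = 0.0641). Uncalled rows with many counts included S2551_RAT (SLC25A51), the NAD carrier, at 55.8 ± 15.6 CPM in C. hamatus, against a mean of 81.5 ± 18.4 in G. acuticeps and of 67.9 ± 13.9 in T. bernacchii, and S2544_MOUSE (SLC25A44), which carries branched-chain amino acids, at 59.3 ± 25.1 CPM in C. hamatus, against a mean of 32.1 ± 11.6 in G. acuticeps and of 76.7 ± 6.45 in T. bernacchii. S238A_DANRE, a copy of SLC25A38, the glycine carrier of heme synthesis, held 2 counts over the C. hamatus libraries, against 13 over those of G. acuticeps and 3 in T. bernacchii, and was not tested.

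Among metal carriers, 4 of 7 tested rows were higher and 1 lower in C. hamatus (background 26.5% and 14.3%). Some of these rows passed the filter through the species in which they were high, so their count is a description. It holds S41A2_MOUSE as higher and S41A2_CHICK as lower, entries of the same carrier whose sum, given below, was not called. The group had a median log2 fold change of 1.12 (1.12 with rows at 0 at their bound), against 0.20 over all rows. Zinc importers of the ZIP family made up 3 of the higher rows. S39AB_RAT (ZIP11) had 21.1, 26.1 and 29.8 CPM in the C. hamatus libraries, against 4.98, 10.05 and 10.3 CPM in those of G. acuticeps and 0 in all 3 T. bernacchii libraries. The values fell into 3 levels with no overlap between species. It was at least 37.6-fold higher in C. hamatus than in T. bernacchii (adjusted p = 0.000356), at least 12.4-fold higher in G. acuticeps than in T. bernacchii (adjusted p = 0.000512), and not called between C. hamatus and G. acuticeps (log2 fold change 1.60, SE 0.61, adjusted p = 0.0653), except without T. bernacchii replicate 2 (1.57, adjusted p = 0.0415). The second row of this carrier, S39AB_XENTR, held 1 count, in T. bernacchii. S399A_XENLA (ZIP9), a zinc carrier of the Golgi and plasma membrane, had 17.6, 79.5 and 20.3 CPM in the C. hamatus libraries, against 4.36, 4.02 and 4.68 CPM in those of G. acuticeps and 0, 0.336 and 0.776 CPM in those of T. bernacchii. Its log2 fold change against the mean of both was 4.79 (SE 0.72, adjusted p = 0.000588); it was 3.76 leaving out C. hamatus replicate 2 and 5.45 leaving out T. bernacchii replicate 3. C. hamatus replicate 2, the library with the highest chromaffin sum, held the highest value of this row, and without replicates 2 and 3 the log2 fold change was 3.67 (adjusted p = 0.0224).

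S39A7_DANRE (ZIP7), which releases zinc from the endoplasmic reticulum, differed less, at 107, 175 and 189 CPM in the C. hamatus libraries, against 72.8, 82.2 and 88.0 CPM in those of G. acuticeps and 43.6, 73.0 and 78.5 CPM in those of T. bernacchii. All C. hamatus libraries lay above the others, with a log2 change of 1.11 (SE 0.32, adjusted p = 0.0191), but the call was lost without C. hamatus replicate 2 (1.02, adjusted p = 0.0594), C. hamatus replicate 3 (0.95, adjusted p = 0.0587), G. acuticeps replicate 2 (1.10, adjusted p = 0.0553) or T. bernacchii replicate 1 (0.98, adjusted p = 0.0509), and without C. hamatus replicates 2 and 3 together it was 0.57 (adjusted p = 0.398). S39A1_TAKRU (ZIP1) had 41.6 ± 28.5 CPM in C. hamatus, against a mean of 14.5 ± 4.18 in G. acuticeps and of 42.9 ± 8.91 in T. bernacchii. S39AD_DANRE (ZIP13) had 14.7 ± 9.26 CPM in C. hamatus, against a mean of 6.41 ± 1.46 in G. acuticeps and of 7.25 ± 4.05 in T. bernacchii, and neither was called against the mean of both. S39A1_TAKRU was called higher in C. hamatus than in G. acuticeps alone (1.52, SE 0.55, adjusted p = 0.0457). For G. acuticeps minus T. bernacchii it was not called (-1.56, SE 0.55, adjusted p = 0.0509). Summed with S39A1_BOVIN, that comparison was called (-1.66, SE 0.55, adjusted p = 0.0429). The rows of the magnesium carrier SLC41A2 went opposite ways. S41A2_CHICK had 0 in all 3 C. hamatus libraries, against 50.7, 43.2 and 56.4 CPM in those of G. acuticeps and 32.7, 22.2 and 28.9 CPM in those of T. bernacchii, with the lowest adjusted p of the 71 tested rows against the mean of both (9.42e-05). It was at least 65.2-fold lower set against G. acuticeps and at least 36.3-fold lower set against T. bernacchii. S41A2_MOUSE had 8.81, 29.1 and 33.4 CPM in the C. hamatus libraries, against 0, 0 and 0.407 CPM in those of G. acuticeps and 0.499, 5.38 and 0.388 CPM in those of T. bernacchii, and it was called higher in C. hamatus (log2 fold change 5.18, SE 0.99, adjusted p = 0.00216); it was 6.71 leaving out G. acuticeps replicate 3 and 6.21 leaving out T. bernacchii replicate 2. With both rows summed, SLC41A2 stood at 23.8 ± 13.1 CPM in C. hamatus, against a mean of 50.2 ± 6.79 in G. acuticeps and of 30.02 ± 2.85 in T. bernacchii, and the log2 fold change of -0.71 (SE 0.45, adjusted p = 0.232) was not called. Metal rows that were not tested included S39A6_MOUSE (ZIP6), with 0, 85 and 30 counts in C. hamatus replicates 1 to 3, none in G. acuticeps and 1 in T. bernacchii. S39AE_MOUSE (ZIP14), a carrier of zinc, iron and manganese, held 0, 6 and 80 counts in C. hamatus, and 2 counts in each of the other species.

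Several carriers were high in 1 or 2 C. hamatus libraries only, the ones with high adrenal sums. S29A2_RAT (ENT2), which lets nucleosides and nucleobases through the plasma membrane, had 24.8, 40.6 and 2016 CPM in the C. hamatus libraries, against 313, 211 and 76.2 CPM in those of G. acuticeps and 7.98, 16.5 and 5.82 CPM in those of T. bernacchii. C. hamatus replicate 3, with the highest interrenal sum, stood far above all libraries, while replicates 1 and 2 lay below all of G. acuticeps. The log2 fold change of 3.96 (SE 1.11, adjusted p = 0.0164) rested on 1 library: it was 4.54 leaving out C. hamatus replicate 1 and the call was lost without C. hamatus replicate 3 (-0.46, adjusted p = 0.581). S22AN_MOUSE (SLC22A23), an organic ion carrier with no settled cargo, had 10.4, 5.08 and 226.4 CPM in the C. hamatus libraries, against 0.623, 1.005 and 1.22 CPM in those of G. acuticeps and 0.748, 5.05 and 2.23 CPM in those of T. bernacchii. It had a log2 change of 5.63 (SE 1.07, adjusted p = 0.00206); it was 2.26 leaving out C. hamatus replicate 3, and without replicates 2 and 3 both it was 2.70 (adjusted p = 0.0819). S35G2_MOUSE, a member of the SLC35 family, was high in both libraries with a high chromaffin sum, at 0.464, 216 and 115 CPM in the C. hamatus libraries, against 10.9, 5.78 and 7.73 CPM in those of G. acuticeps and 3.24, 0 and 3.40 CPM in those of T. bernacchii. Its C. hamatus replicate 1 was lower than every G. acuticeps library, and the log2 fold change of 4.65 (SE 1.13, adjusted p = 0.00805) was -3.15 (adjusted p = 0.274) without replicates 2 and 3; with single libraries left out, it was 3.71 leaving out C. hamatus replicate 2. S12A2_HUMAN (NKCC1), which loads cells with sodium, potassium and chloride, had 3.94, 50.8 and 5.96 CPM in the C. hamatus libraries, against 4.05, 0.502 and 1.42 CPM in those of G. acuticeps and 1.99, 3.36 and 1.26 CPM in those of T. bernacchii, and a log2 change of 3.28 (SE 0.89, adjusted p = 0.0139). The call was lost without C. hamatus replicate 2 (1.25, adjusted p = 0.307). The neuronal potassium-chloride carrier S12A5_RAT (KCC2) and the fatty acid carrier S27A4_MACFA (FATP4) also peaked in C. hamatus replicate 2, at 50.8 and 101 CPM, and neither was called. These 3 rows were named after their values were seen. The part of adrenal cells in these values was not tested.

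**Figure D4:**
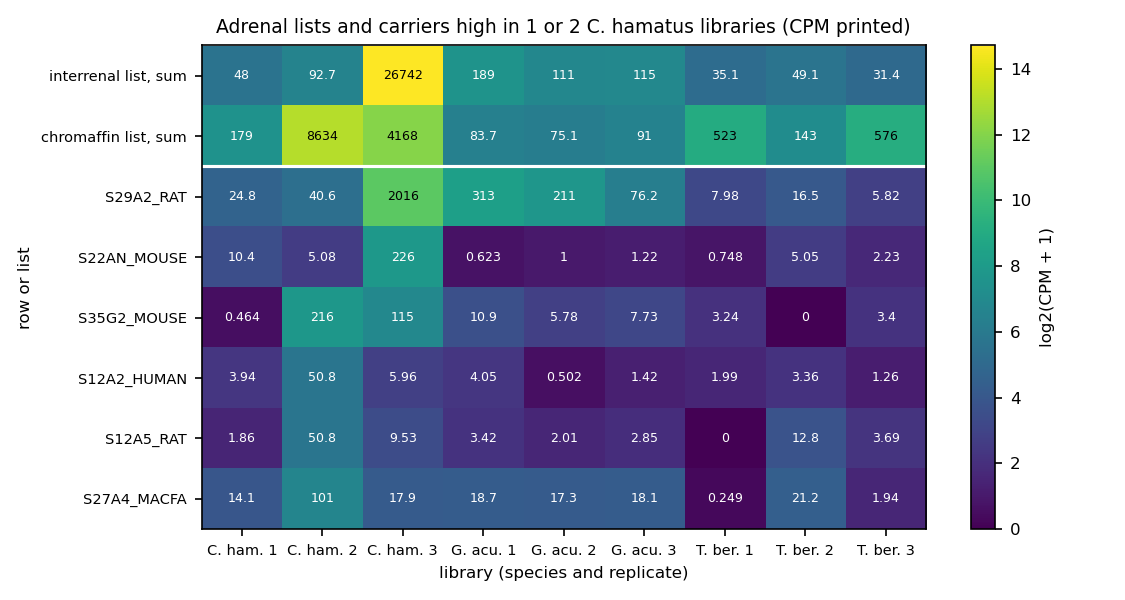
Sums of the interrenal and chromaffin marker lists (top 2 rows) and levels of 6 carrier rows (below the white line) in the 9 libraries (x axis), coloured by log2(CPM + 1) with the CPM printed in each cell. S29A2_RAT and S22AN_MOUSE peaked in C. hamatus replicate 3, as the interrenal list did, S35G2_MOUSE was high in replicates 2 and 3, and S12A2_HUMAN, S12A5_RAT and S27A4_MACFA peaked in replicate 2.

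Vitamin and fatty acid carriers differed in single rows. S52A2_RAT (SLC52A2), a riboflavin carrier named after its values were seen, had 17.6, 10.5 and 16.7 CPM in the C. hamatus libraries, against 0, 0 and 0.102 CPM in those of G. acuticeps and 0 in all 3 T. bernacchii libraries. It was 264-fold higher by counts (95% counting interval 46.9 to 10492) in C. hamatus set against G. acuticeps (adjusted p = 0.00113). Set against T. bernacchii it was at least 21.9-fold higher (adjusted p = 0.00113). Against the mean of both species its adjusted p was 0.000225. It was called without any 1 library, at an adjusted p of at most 0.00229. S46A3_CHICK (SLC46A3), a lysosomal carrier, was lower, at 0.232, 3.38 and 1.59 CPM in the C. hamatus libraries, against 90.9, 49.7 and 39.9 CPM in those of G. acuticeps and 25.7, 33.3 and 21.9 CPM in those of T. bernacchii. No icefish library reached the lowest red-blooded one, and the log2 fold change was -4.57 (SE 0.75, adjusted p = 0.000979); it was -5.41 leaving out C. hamatus replicate 2. The folate carrier S19A1_HUMAN (SLC19A1) was not called, at 13.9 ± 15.1 CPM in C. hamatus, against a mean of 17.1 ± 9.40 in G. acuticeps and of 19.2 ± 9.70 in T. bernacchii. S27A2_HUMAN (FATP2), which takes up and activates fatty acids and is also named after its values were seen, had 33.4, 8.80 and 25.02 CPM in the C. hamatus libraries, against 6.23, 0.502 and 1.63 CPM in those of G. acuticeps and 1.74, 0 and 0.194 CPM in those of T. bernacchii, with a log2 change of 4.07 (SE 0.95, adjusted p = 0.00646); it was 4.69 leaving out G. acuticeps replicate 1 and 5.07 leaving out T. bernacchii replicate 1. Its mouse entry, S27A2_MOUSE, was not tested and held 0, 0 and 144 counts in C. hamatus replicates 1 to 3. The other called rows of the organic ion group held few counts. S22FL_XENLA (like SLC22A15) was at 0 in C. hamatus and at 2.99, 26.6 and 5.73 CPM in T. bernacchii, highest in replicate 2, at least 15.3-fold lower in C. hamatus (adjusted p = 0.00445). S22AI_MOUSE (SLC22A18) stood at 3.01 ± 1.23 CPM in C. hamatus, against a mean of 0.0678 ± 0.117 in G. acuticeps and of 0.850 ± 1.31 in T. bernacchii; its call as higher (adjusted p = 0.0347) was kept only without C. hamatus replicate 3 or T. bernacchii replicate 2 among the 9 libraries left out in turn, with adjusted p up to 0.0936. Its human entry, S22AI_HUMAN, was not tested and held 2 counts in C. hamatus, 12, 6 and 42 in G. acuticeps replicates 1 to 3 and 5 in T. bernacchii. With both rows summed, SLC22A18 had 3.16 ± 1.38 CPM in C. hamatus, against a mean of 3.24 ± 1.55 in G. acuticeps and of 1.25 ± 1.84 in T. bernacchii, and it was not called (0.69, SE 0.98, adjusted p = 0.607).

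Most of the SLC35 family brings nucleotide sugars into the Golgi and the endoplasmic reticulum. Of this family, 5 of 13 tested rows were higher and 1 lower in C. hamatus (background 26.5% and 14.3%). S35F5_HUMAN, with no settled cargo, had 27.8, 16.6 and 50.04 CPM in the C. hamatus libraries, against 1.56, 1.26 and 2.03 CPM in those of G. acuticeps and 0.997, 1.68 and 1.75 CPM in those of T. bernacchii, and a log2 change of 4.32 (SE 0.52, adjusted p = 0.000217). Without any 1 library it ran from 3.81 to 4.61. S35E4_HUMAN, likewise without settled cargo, had 32.005, 28.1 and 20.7 CPM in the C. hamatus libraries, against 1.56, 2.51 and 2.64 CPM in those of G. acuticeps and 0.997, 2.69 and 2.13 CPM in those of T. bernacchii, and 3.67 (SE 0.50, adjusted p = 0.000362); without any 1 library it ran from 3.50 to 3.82. In both rows every icefish library lay above all red-blooded ones, whose species overlapped. S35B1_DANRE (SLC35B1), the ATP carrier of the endoplasmic reticulum, named after its values were seen, had 73.5, 71.7 and 49.2 CPM in the C. hamatus libraries, against 11.5, 13.8 and 14.2 CPM in those of G. acuticeps and 46.4, 38.7 and 29.3 CPM in those of T. bernacchii. Its difference was against G. acuticeps (log2 fold change 2.29, SE 0.41, adjusted p = 0.00170) and not called against T. bernacchii (0.77, SE 0.39, adjusted p = 0.160). S35A1_HUMAN (SLC35A1), the Golgi carrier of CMP-sialic acid, also named after its values were seen, was called against T. bernacchii (1.94, SE 0.42, adjusted p = 0.00597) and not against G. acuticeps (0.88, SE 0.41, adjusted p = 0.110), at 54.6 ± 16.8 CPM in C. hamatus, against a mean of 29.7 ± 4.29 in G. acuticeps and of 14.2 ± 0.677 in T. bernacchii. Without C. hamatus replicates 2 and 3 its value against the mean of both was 0.79 (adjusted p = 0.271). S35E1_HUMAN was lower, at 35.3, 38.2 and 28.99 CPM in the C. hamatus libraries, against 192, 149.7 and 113 CPM in those of G. acuticeps and 91.5, 98.9 and 125 CPM in those of T. bernacchii, with -1.89 (SE 0.34, adjusted p = 0.00160); without any 1 library it ran from -1.98 to -1.79. The sulfate-donor carriers S35B2_HUMAN and S35B3_MOUSE, which bring PAPS into the Golgi, overlapped in the 3 species. S35B2_HUMAN had 31.8 ± 17.1 CPM in C. hamatus, against a mean of 37.6 ± 7.24 in G. acuticeps and of 39.5 ± 7.77 in T. bernacchii, and S35B3_MOUSE had 26.6 ± 6.87 CPM in C. hamatus, against a mean of 23.5 ± 2.33 in G. acuticeps and of 24.97 ± 8.43 in T. bernacchii. Their log2 fold changes of -0.28 (SE 0.41, adjusted p = 0.612) and 0.13 (SE 0.39, adjusted p = 0.822) were not called.

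The red-blooded species also differed from each other. Between G. acuticeps and T. bernacchii, 9 of 71 carriers were higher in G. acuticeps and 13 lower, against 13.1% and 18.3% of all tested rows and 31.4% in either direction. The count of higher carriers was 4 without G. acuticeps replicate 1 and also without T. bernacchii replicate 1. Over all rows 825 of 9240 and 847 of 9261 were then higher, in place of 1138 of 8662. Lower in G. acuticeps was the potassium-chloride carrier S12A4_MOUSE (KCC1), known from red cell volume control, at 8.72, 2.51 and 0.712 CPM in G. acuticeps, against 145, 107 and 238.2 in T. bernacchii (log2 fold change -5.43, SE 0.99, adjusted p = 0.00233). It was -6.72 leaving out G. acuticeps replicate 1 and -4.80 leaving out G. acuticeps replicate 3. C. hamatus lay between them at 16.9, 31.8 and 92.5 CPM, higher than G. acuticeps (3.63, SE 0.92, adjusted p = 0.0101; it was 2.68 leaving out C. hamatus replicate 3, 4.91 leaving out G. acuticeps replicate 1 and 3.04 leaving out G. acuticeps replicate 3) and not called against T. bernacchii (-1.79, SE 0.83, adjusted p = 0.126), except without C. hamatus replicate 3 (-2.75, adjusted p = 0.0422). S20AB_DANRE, a copy of the phosphate carrier SLC20A1, had 3.42, 5.53 and 4.58 CPM in G. acuticeps, against 156, 59.6 and 202 in T. bernacchii (-4.94, SE 0.73, adjusted p = 0.000647), where without any 1 library it ran from -5.29 to -4.49. The other copy, S20AA_DANRE, was at 0 in G. acuticeps and at 53.6, 19.5 and 33.7 CPM in T. bernacchii, at least 53.6-fold lower in G. acuticeps (adjusted p = 0.00753). Both copies were thus lower in G. acuticeps. In C. hamatus S20AB_DANRE had 8.58, 42.3 and 19.1 CPM, lower than in T. bernacchii (-2.58, SE 0.65, adjusted p = 0.0117; it was -3.33 leaving out C. hamatus replicate 2). The sum of all erythroid markers was highest in T. bernacchii and, without its 2 globin rows, in G. acuticeps, and the part of red cells in the differences of these carriers was not tested.

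Among nucleoside carriers, ENT1 set T. bernacchii apart from both other species. S29A1_RAT (ENT1), the adenosine carrier best known from human red cells, had 31.3, 22.7 and 27.004 CPM in the C. hamatus libraries, against 47.3, 29.4 and 24.2 CPM in those of G. acuticeps and 198, 166 and 82.4 CPM in those of T. bernacchii. The T. bernacchii libraries lay above all 6 others, with log2 fold changes of -2.46 (SE 0.46, adjusted p = 0.00293) for C. hamatus and -2.15 (SE 0.46, adjusted p = 0.00532) for G. acuticeps against it, while C. hamatus and G. acuticeps were not called apart (-0.31, SE 0.44, adjusted p = 0.602). For G. acuticeps minus T. bernacchii, without any 1 library it ran from -2.46 to -1.87. Its value against the mean of both red-blooded species, -1.39 (SE 0.41, adjusted p = 0.0203), was a call that rested on T. bernacchii, and the call was lost without C. hamatus replicate 2 (-1.28, adjusted p = 0.0688). S29A2_RAT (ENT2), described above, was higher in G. acuticeps than in T. bernacchii (4.33, SE 1.49, adjusted p = 0.0485), a call lost without any 1 of their 6 libraries, at an adjusted p of up to 0.120. The lysosomal form S29A3_BOVIN (ENT3) was highest in G. acuticeps, at 11.9 ± 3.97 CPM in C. hamatus, against a mean of 32.4 ± 6.93 in G. acuticeps and of 9.86 ± 3.17 in T. bernacchii, but its call over T. bernacchii (adjusted p = 0.0288) was lost without G. acuticeps replicate 1 or 2 or T. bernacchii replicate 1 or 3, with adjusted p up to 0.102. S45A3_MOUSE (SLC45A3), a sugar carrier, had 0.132 ± 0.229 CPM in C. hamatus, against a mean of 0.0678 ± 0.117 in G. acuticeps and of 20.5 ± 3.39 in T. bernacchii. Compared with T. bernacchii it was 174-fold lower by counts (95% counting interval 47.8 to 1441) in G. acuticeps, with an adjusted p of 0.00116, and 126-fold lower by counts (95% counting interval 34.5 to 1041) in C. hamatus, with an adjusted p of 0.00184. S35E2_MOUSE was counted in T. bernacchii alone, at 61.8, 29.6 and 74.5 CPM, at least 83.3-fold lower in G. acuticeps (adjusted p = 0.000678) and at least 71.9-fold lower in C. hamatus (adjusted p = 0.000980). SLC35D2, which carries UDP-sugars, had 2 rows that were both highest in T. bernacchii, and their sum was 2.55 ± 1.98 CPM in C. hamatus, against a mean of 2.71 ± 0.741 in G. acuticeps and of 32.8 ± 10.5 in T. bernacchii, with -3.57 (SE 0.78, adjusted p = 0.00640) for G. acuticeps minus T. bernacchii.

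The carriers higher in G. acuticeps than in T. bernacchii included amino acid and sialic acid carriers. The skeletal muscle sum was highest in G. acuticeps as well, mostly through the row ACTS_ORYLA, and its part in these values was not tested. S38A9_DANRE (SLC38A9), which senses arginine at the lysosome, had 0.928, 3.38 and 18.7 CPM in the C. hamatus libraries, against 33.3, 34.9 and 25.9 CPM in those of G. acuticeps and 0, 1.35 and 0.679 CPM in those of T. bernacchii, with 5.54 (SE 1.27, adjusted p = 0.00774) for G. acuticeps minus T. bernacchii; it was 6.17 leaving out T. bernacchii replicate 2. S38A3_HUMAN (SNAT3), a glutamine carrier of liver and kidney, had 92.3, 63.3 and 31.8 CPM in the C. hamatus libraries, against 164, 132 and 77.2 CPM in those of G. acuticeps and 4.24, 11.8 and 2.62 CPM in those of T. bernacchii. T. bernacchii was the low species, by 4.36 (SE 0.70, adjusted p = 0.00107) for G. acuticeps and 3.37 (SE 0.67, adjusted p = 0.00387) for C. hamatus over it. Without T. bernacchii replicate 2 these were 5.20 and 4.19. S38A7_DANRE (SLC38A7), a lysosomal glutamine exporter, ran the other way, at 10.9, 19.6 and 9.13 CPM in the C. hamatus libraries, against 1.25, 1.51 and 2.85 CPM in those of G. acuticeps and 23.2, 23.6 and 24.4 CPM in those of T. bernacchii, so that G. acuticeps was the low species (-3.61 (SE 0.63, adjusted p = 0.00177) against T. bernacchii, and 2.76 (SE 0.61, adjusted p = 0.00497) for C. hamatus over it). S38A2_DANRE (SNAT2), a widely used carrier of small neutral amino acids, was lower in the icefish than in G. acuticeps (-2.02, SE 0.62, adjusted p = 0.0234), at 10.8 ± 6.01 CPM in C. hamatus, against a mean of 43.8 ± 4.47 in G. acuticeps and of 19.97 ± 12.7 in T. bernacchii; the call was lost without C. hamatus replicate 1 (-1.77, adjusted p = 0.0537), C. hamatus replicate 3 (-1.98, adjusted p = 0.0506), G. acuticeps replicate 1 (-2.05, adjusted p = 0.0534) or G. acuticeps replicate 3 (-1.99, adjusted p = 0.0607). S15A4_XENLA (SLC15A4), an endolysosomal carrier of histidine and peptides in immune cells, and S38AA_XENLA (SLC38A10) were called in none of the 4 comparisons by edgeR. S17A5_HUMAN (sialin), which exports sialic acid from lysosomes, had 0.464, 6.77 and 5.16 CPM in the C. hamatus libraries, against 101, 57.5 and 46.6 CPM in those of G. acuticeps and 0.499, 8.75 and 1.16 CPM in those of T. bernacchii. G. acuticeps stood above both, with 4.37 (SE 1.13, adjusted p = 0.0142) over T. bernacchii and -4.05 (SE 1.11, adjusted p = 0.0143) for C. hamatus minus G. acuticeps. For G. acuticeps minus T. bernacchii, it was 6.23 leaving out T. bernacchii replicate 2 and the call was lost without G. acuticeps replicate 1 (3.98, adjusted p = 0.0529). Summed with its sheep entry, SLC17A5 kept this order at 9.94 ± 7.09 CPM in C. hamatus, against a mean of 71.4 ± 29.95 in G. acuticeps and of 8.18 ± 4.72 in T. bernacchii (3.14, SE 0.80, adjusted p = 0.0135 for G. acuticeps minus T. bernacchii).

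**Figure D5:**
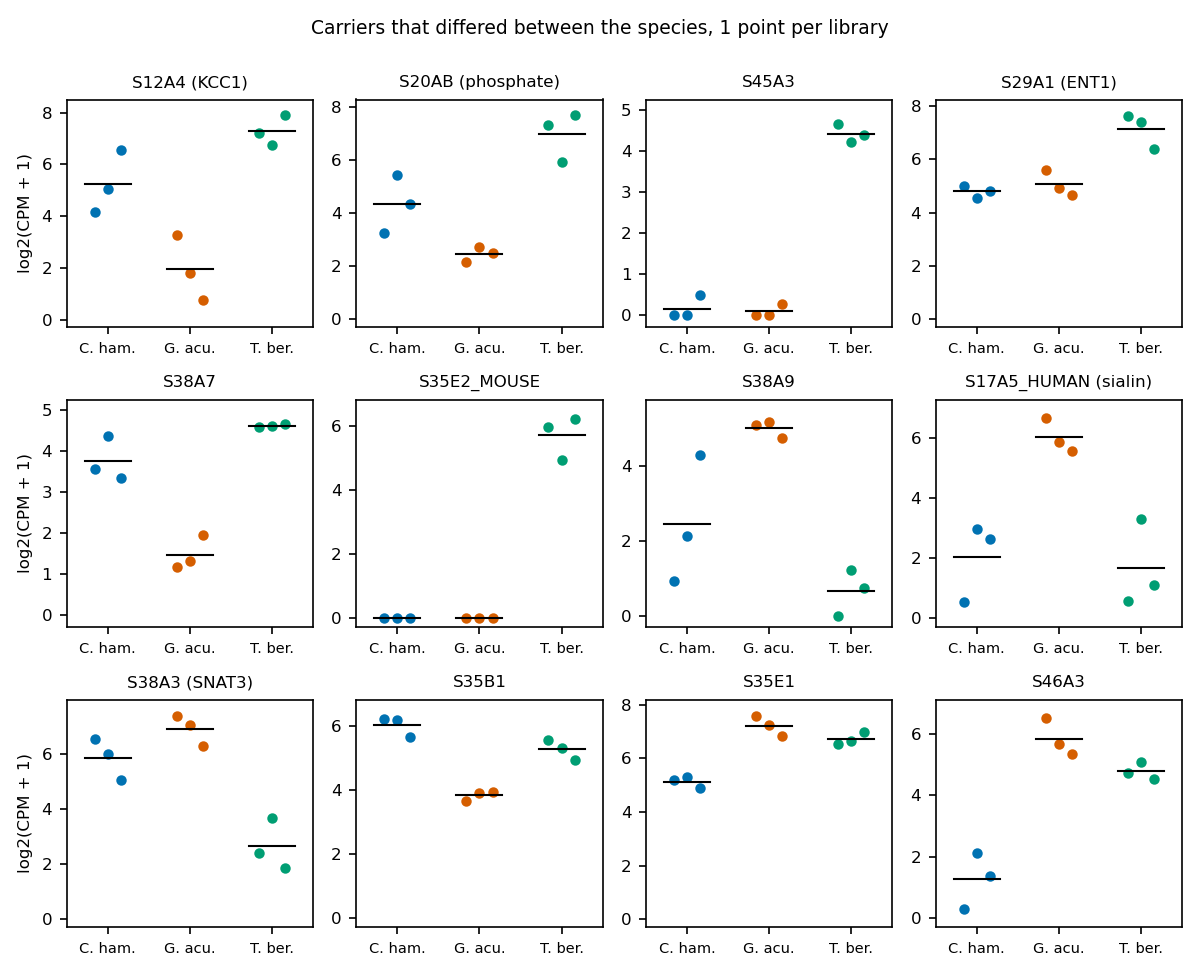
Level as log2(CPM + 1) (y axis) of 12 carrier rows in each species (x axis), 1 point per library with a line at the mean of the 3 points. By species mean, T. bernacchii was highest in S12A4, S20AB, S45A3, S29A1, S38A7 and S35E2, G. acuticeps in S38A9, S17A5, S38A3, S46A3 and S35E1, and C. hamatus in S35B1. C. hamatus was lowest in S35E1, S46A3 and S29A1, and was at 0 together with G. acuticeps in S35E2.

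Carriers whose UniProt code has another form, such as glucose, monocarboxylate, zinc exporter and further mitochondrial carrier rows, were counted beside the members. Of 68 tested rows of that list, 24 were higher and 10 lower in C. hamatus than the mean of the others, against 26.5% and 14.3% of all rows. Their log2 fold changes had a median of 0.82, where all rows had 0.20. Between G. acuticeps and T. bernacchii, 10 were higher and 13 lower in G. acuticeps, against 13.1% and 18.3% of all rows. Among those higher in C. hamatus, and chosen after the values were seen, was MOT4_CHICK (SLC16A3), a lactate exporter of glycolytic cells, at 144 ± 120.2 CPM in C. hamatus, against a mean of 0.578 ± 0.0661 in G. acuticeps and of 0.0647 ± 0.112 in T. bernacchii. The 53 member rows that were not tested held at most 10 counts over all 9 libraries in 26 cases and over 100 in 5. Among these 5, S35A3_HUMAN held 282 counts, all in G. acuticeps replicate 3. S35C2_HUMAN held 162 of its 175 counts in T. bernacchii replicate 3, and S27A2_MOUSE 144 of its 157 in C. hamatus replicate 3. Over all 124 rows, 22 were at 0 in every C. hamatus library, 33 in every G. acuticeps library and 23 in every T. bernacchii library. These counts are a description, with no share of all rows of the table beside them.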

How the data were processed

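RNA was extracted with Trizol from frozen head kidney and made into TruSeq libraries, per the labels' protocols. The authors deposited raw read counts per UniProt entry for 9 libraries, 3 per species, and how reads were aligned, to which reference, and counted is not given in the sources used here. Rows of 1 protein from several organisms, and close family members, may share reads and are uncertain; rows of 1 mnemonic were therefore also summed.

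Counts were tested with edgeR 4.0.16 (quasi-likelihood test, filterByExpr, TMM scaling, R 4.3.3) in 1 fit of all 9 libraries and 8662 tested rows, with Benjamini-Hochberg adjustment over all of them and a call at an adjusted p under 0.05. DESeq2 1.42.0 served as an alternative. The fit was tested on simulated data. Folds are log2 fold changes; intervals are exact, at 95%.

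Members, gene groups and marker lists were chosen with earlier results of these data known. The naming rule took every tested kidney-type, mitochondrial and metal row, in other groups up to 4 called rows by size of the change with a mean count of at least 100, the 3 highest and 3 lowest called rows of each pair of species, the 10 rows with the highest mean CPM, and entries present for several organisms. Rows named outside it were chosen after their values were seen: S52A2, S12A2, S12A5, S27A2, S27A4, S20AB, S35B1, S35A1, S22FL, S22AI, S29A3, S38A2, S38A7, S19A1, S35B2 and S35B3, and untested rows given as counts. The codes S226B, S238A and S399A, which carry a copy letter, were put in the kidney-type, mitochondrial and metal groups after the row names were seen.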

Additional observations from a re-analysis of the deposited data

How the results depend on the processing

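The counts of called carriers moved by more than 1.5 times under 4 kinds of change. With at least 50 counts required in 3 libraries, 12 carriers, in place of 21, were higher in C. hamatus than the mean of the others, 13 in place of 20 were higher than in T. bernacchii and 10 in place of 16 lower; fewer rows are tested under this filter, and over all rows 1667, 1057 and 1009 were so called in place of 2296, 1527 and 1283. By the DESeq2 Wald test 14 in place of 8 were lower in C. hamatus than the mean of the others, and over all rows 1610 in place of 1239. Without C. hamatus libraries 2 and 3, 8 in place of 19 were higher than in G. acuticeps and 10 in place of 20 higher than in T. bernacchii, and over all rows 1303 in place of 2177 and 850 in place of 1527. With 1 library left out at a time, the counts ran from 19 to 30 higher and 8 to 12 lower for C. hamatus against the mean of the others, 14 to 28 and 7 to 12 against G. acuticeps, 13 to 25 and 13 to 17 against T. bernacchii, and 4 to 11 and 9 to 15 for G. acuticeps minus T. bernacchii. Over all rows these ranges were 1932 to 2866 and 981 to 1408, 1570 to 2513 and 1095 to 1664, 1173 to 2051 and 1013 to 1457, and 825 to 1317 and 969 to 1773. Where an arm was left with 1 library, that library is assumed to vary like the other species.

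Of 71 named values, a row in 1 comparison each, 60 were called, and 4 of the called ones turned sign. S22A6_HUMAN was 3.02 for C. hamatus minus G. acuticeps with SLC22A6 rows summed, an alternative chosen after seeing the data, and S41A2_MOUSE was -0.71 with rows of 1 mnemonic summed, since reads of both carriers lay on other rows. S29A2_RAT ran from -0.46 without C. hamatus replicate 3 to 4.54 without replicate 1, and was -0.83 without replicates 2 and 3, and S35G2_MOUSE was -3.15 without replicates 2 and 3. Of the uncalled ones, S35B3_MOUSE ran from -0.039 when C. hamatus replicate 2 was dropped to 0.32 when replicate 3 was, with -0.0075 when it was T. bernacchii replicate 2, and S19A1_HUMAN ran from -1.78 (C. hamatus replicate 3 dropped) to 0.12 (replicate 1 dropped). Over all named values and settings, 1158 kept their direction and side of the threshold, 55 kept the direction but lost the call, 8 gained one, and 8 turned.

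Replicate numbers were not shown to pair the libraries: correlations of same-numbered deviations ran from -0.220 to 0.260. With the replicate number as a block, 19 carriers were higher and 8 lower in C. hamatus than the mean of the others. Over all 8662 rows these counts were 2096 and 1168. Against G. acuticeps they were 16 and 8 (1947 and 1442 over all rows). Against T. bernacchii they were 18 and 16 (1446 and 1183 over all rows). For G. acuticeps minus T. bernacchii they were 8 and 14 (1146 and 1422 over all rows). Depth differed between libraries, and a count of 0 weighs least in C. hamatus replicate 2 and T. bernacchii replicate 2, where 3 counts correspond to 1.02 and 1.01 CPM.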
